A study of Canis lupus familiaris with 4 samples.

Results

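Transcripts of 38 collagen genes other than type VI were followed in mesenchymal stromal cells (MSCs) grown from adipose tissue of 4 dogs. Each dog, numbered as in the library names, gave 1 untreated primary culture and 1 sequencing library. MSCs are plastic-adherent progenitor cells of connective tissue. The members were all genes in the deposited table, out of 30951, whose symbol is COL, a number, A and a number, leaving out the 4 type VI genes. Each symbol stood in 1 row, so no row had to be chosen among several. All cultures were kept in DMEM with 10% serum, seeded in 24-well plates and harvested after 48 h, and no second condition, time or treatment exists among the labels. The 4 dogs are therefore the replicates of 1 group, and dog, culture and library cannot be told apart. COL18A1 was not analysed here under its symbol.

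Collagens are secreted or membrane proteins whose chains wind around each other into rope-like helices. Fibrillar collagens build the fibres that give tissue its tensile strength, network collagens form sheets such as the basement membrane, and fibril-associated collagens (FACITs) sit on fibre surfaces. Stromal cells and fibroblasts are the main producers of types I, III and V. Many collagens are mixtures of chains from different genes, so the balance between partner genes is of interest beside the level of each.

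The libraries held 22411268, 16246965, 15203607 and 7474011 assigned reads in dogs 1 to 4, so precision was lowest in dog 4. The level of a gene is its deposited log2 value minus the median over detected genes of the same library, and genes with reads in 2 or more libraries counted as detected. Normalised reads are reads divided by the size factor of the library. Neither measure was corrected for transcript length, because transcript lengths were not available here, and a long transcript yields more reads than a short one. Values are therefore compared for 1 gene between dogs, and a high read level does not rank genes by number of molecules. Of the 6 MSC marker genes examined, THY1, ENG, CD44, PDGFRA and PDGFRB passed the test of level described next in the upward direction, and NT5E in the downward one. Of all detected genes, 33.3% passed upward and 35.8% downward. Of the markers of other cells, LYZ of leukocytes, PECAM1 and TIE1 of endothelium and CDH1 and TP63 of epithelium had 0 reads in every dog, but not all markers on these lists were absent. The endothelial genes VWF (380, 62, 214 and 12 reads) and KDR (95, 65, 76 and 34) and the leukocyte gene CSF1R (103, 247, 289 and 48) passed in neither direction. RUNX2 of osteoblasts and ACTA2, TAGLN, CNN1 and MYH11 of smooth muscle and myofibroblasts passed in the upward direction.

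The collagen family ranged from a few very highly read genes, through genes at levels between, to many near the floor. Of the 38 members, 31 were detected. In the test of level (limma, distance of 1 log2 unit, Benjamini-Hochberg adjusted p under 0.05), 14 members lay above the median detected gene and 13 lay below it, while 4 passed in neither direction. Over all 17200 detected genes, 33.3% were above and 35.8% below. A smaller share of members than of all detected genes thus passed in neither direction, a difference that was not tested. The 7 members not detected were COL4A4, COL4A6, COL9A1, COL22A1, COL23A1, COL25A1 and COL28A1. The median level of the 31 detected members was 1.34, beside -0.02 over all detected genes. By class, 7 of 11 fibrillar genes were above and 3 below, 3 of 10 FACIT genes were above and 4 below, and 2 of 6 basement membrane genes were above and 2 below. The multiplexin gene COL15A1 and the anchoring fibril gene COL7A1 were also above. None of the 3 short-chain network genes or the 4 transmembrane genes was above.

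**Figure D1:**
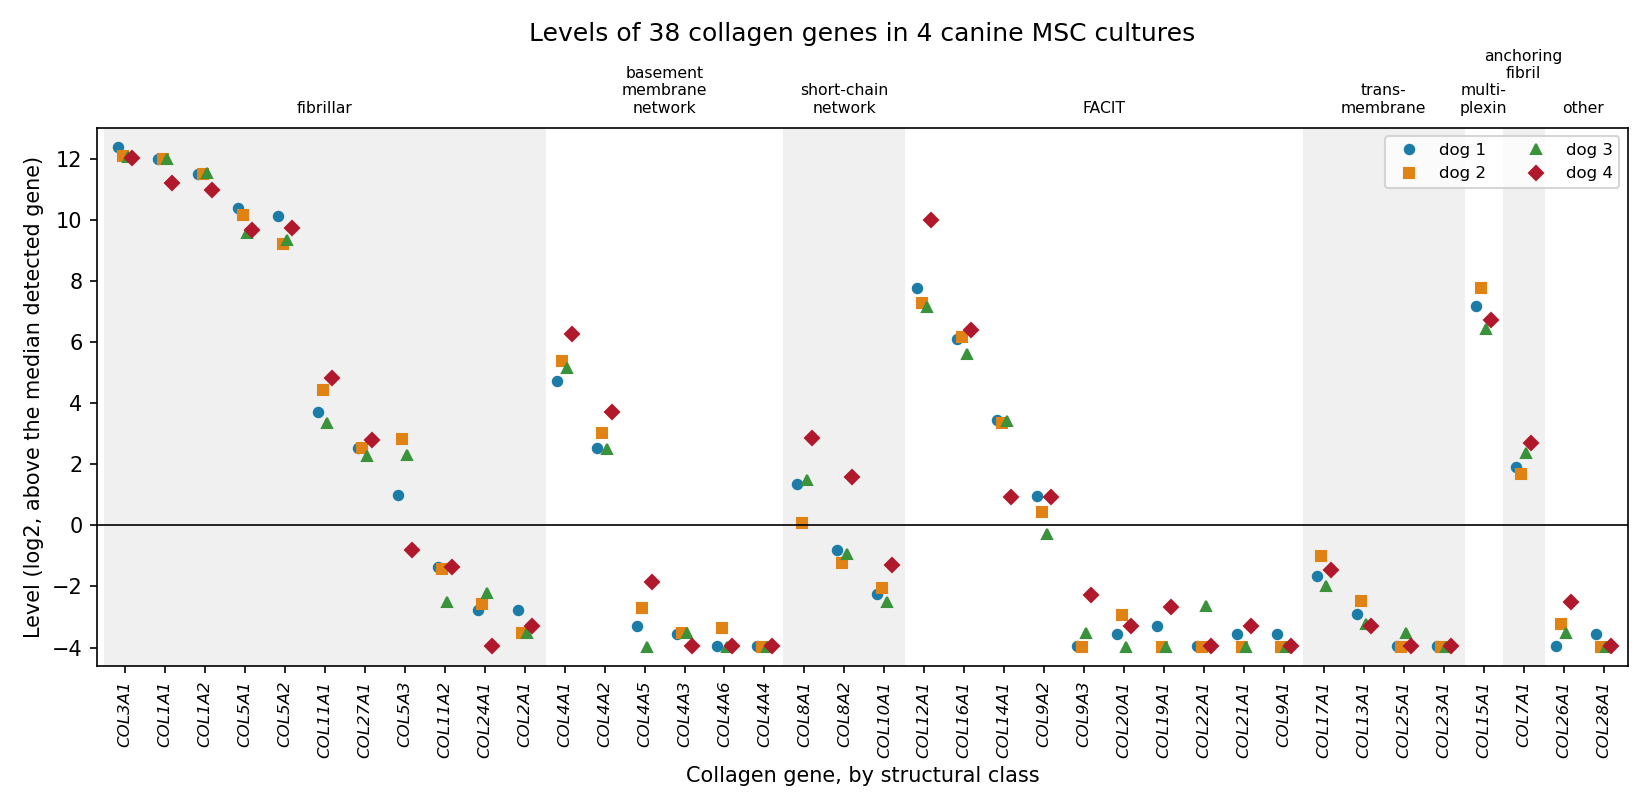
Level of each collagen gene (vertical axis, log2 above the median detected gene of the library) by structural class, with 1 point per dog. COL3A1, COL1A1 and COL1A2 lie above 10 in every dog, while the lowest points, near -4, mark 0 reads.

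The collagen genes together took 14.99%, 14.7%, 14.5% and 11.3% of all assigned reads in dogs 1 to 4 (13.9% ± 1.72, SD, n = 4 dogs). The share was close in dogs 1 to 3 and lowest in dog 4, where it stood apart from the others, and without dog 4 the mean was 14.7%. COL3A1, COL1A1 and COL1A2 held 81.0% ± 5.41 of these collagen reads, and with COL5A1 and COL5A2 94.5% ± 4.26 (SD, n = 4). The 5 genes together made up 96.7%, 96.0%, 97.3% and 88.2% of the collagen reads in dogs 1 to 4. In dog 4 the remainder was mostly COL12A1, at 8.88% of collagen reads, against 1.42%, 1.13% and 1.08% in dogs 1 to 3.

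**Figure D2:**
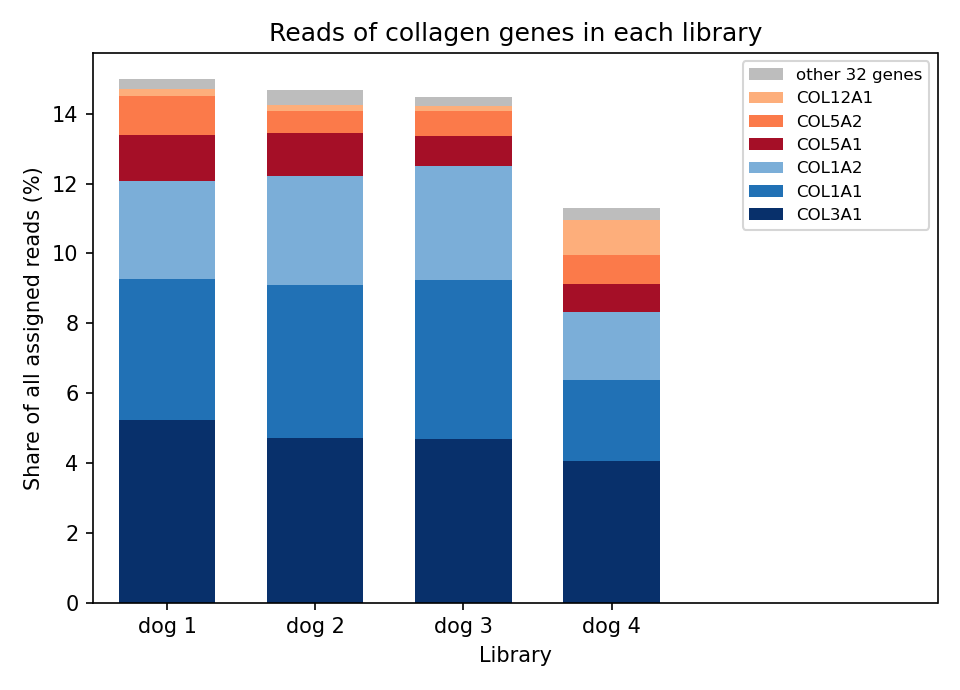
Share of all assigned reads (vertical axis, %) taken by collagen genes in each library, stacked by gene. The bars of dogs 1 to 3 reach 14.99%, 14.7% and 14.5%, and that of dog 4 reaches 11.3% with a thicker COL12A1 segment.

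Type I collagen, the main protein of bone, tendon and skin, combines chains of COL1A1 and COL1A2. COL1A1 (ENSCAFG00000017018) had 647793, 658671, 658936 and 376360 normalised reads in dogs 1 to 4. COL1A2 had 454119, 466786, 476774 and 316881. For both genes dogs 1 to 3 lay close together and dog 4 was lowest, by 0.80 log2 units below the mean of the other dogs for COL1A1 (difference -0.80) and by 0.56 for COL1A2 (difference -0.56). Their levels were 11.80 ± 0.39 and 11.37 ± 0.27 (SD, n = 4). COL3A1 encodes the only chain of type III collagen, which is common in distensible tissue and in early repair. It had 842671, 707085, 681142 and 657361 normalised reads and the smallest spread of any detected member, with a level SD of 0.16. All 3 genes were above the median detected gene in 4 of 4 dogs (limma, Benjamini-Hochberg adjusted p = 1e-07 for COL1A1, 4.84e-08 for COL1A2 and 1.58e-07 for COL3A1). These 3 calls were lost when all genes of the table, detected or not, entered the fit, although the levels were the same, and the cause was not tested.

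Type V collagen is a minor fibril component that sets fibre diameter, and its chains come from COL5A1, COL5A2 and COL5A3. COL5A1 had 212820, 183738, 122718 and 129171 normalised reads in dogs 1 to 4, with dogs 1 and 2 higher than dogs 3 and 4. COL5A2 had 176425, 95521, 103234 and 134612, with dog 1 highest and dog 2 lowest. COL5A2 is the next protein-coding gene to COL3A1 in the RefSeq annotation (assembly UU_Cfam_GSD_1.0). Both had their highest value in dog 1, as did COL5A1, which is not next to either. Their lowest values fell in different dogs, dog 4 for COL3A1 and dog 2 for COL5A2. The third chain gene was read far less and spread more widely. COL5A3 (ENSCAFG00000017958) had 295, 1134, 779.9 and 71.6 normalised reads, a 15.8-fold range between dog 2 and dog 4, and the largest level SD among members with at least 10 reads in every dog (1.62). Its level of 1.34 ± 1.62 passed the test in neither direction (limma, Benjamini-Hochberg adjusted p = 0.334). Without dog 4, its lowest dog, it was above, at 2.05, while leaving out dog 1, dog 2 or dog 3 gave no call. Leaving out the lowest dog can only raise a mean.

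The other fibrillar genes were lower in reads. COL11A1, a chain of the cartilage fibril collagen type XI, had 2075, 3452, 1614 and 4454 normalised reads in dogs 1 to 4. Its level was 4.08 ± 0.67, with dog 4 highest and dog 3 lowest. COL27A1, a fibrillar collagen of cartilage, was even between dogs, at 906, 905, 762 and 1082 normalised reads (level 2.54 ± 0.21). COL11A2 was below the median detected gene, at -1.66 ± 0.57 (limma, adjusted p = 0.0277). It had 59, 45, 12 and 20 reads, or 42.4, 41.5, 11.5 and 43.4 normalised reads, so dog 3 alone was low, and without dog 3 the level was -1.38 and no longer passed, nor did it with every gene of the table tested or at a distance of 2 log2 units. COL24A1, a fibrillar collagen of developing bone, had 10, 11 and 18 reads in dogs 1 to 3 and 0 in dog 4, where 0 reads allow up to 0.401 counts per 1000000 assigned reads (CPM). The cartilage collagen COL2A1 had 10 reads in dog 1 and 1 read in each of the others, and it was below the median detected gene, as was COL24A1.

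Among basement membrane collagens, only the ubiquitous chain genes were read above the median detected gene. COL4A1 had 4173, 6676, 5715 and 12225 normalised reads in dogs 1 to 4 (level 5.38 ± 0.65). COL4A2, its partner chain, had 899, 1278, 900.2 and 2078 (level 2.95 ± 0.57). Both were highest in dog 4 and lowest in dog 1, although dogs 1 and 3 were nearly equal for COL4A2. The annotated spans of COL4A1 and COL4A2 overlap each other in RefSeq, and it is not known here whether the reads were counted by strand. Reads in the shared stretch can therefore not be assigned with certainty, which also bears on the ratio of these genes. The other chain genes, which belong to more specialised basement membranes, were near the floor. COL4A5 had 3, 9, 0 and 12 reads, COL4A3 had 1 read in each of dogs 1 to 3 and 0 in dog 4, COL4A6 had 2 reads in dog 2 alone and COL4A4 had 0 reads in all 4 dogs. COL4A5 and COL4A3 were called below.

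Short-chain collagens form hexagonal sheets around vessels and in the eye (type VIII) or in growth-plate cartilage (type X). COL8A1 had 386, 149, 434 and 1123 normalised reads in dogs 1 to 4, and COL8A2 had 70.4, 48.9, 64.9 and 458. Both partner genes were highest in dog 4 and lowest in dog 2. COL8A2 lay between 48.9 and 70.4 in dogs 1 to 3, and dog 4 stood 2.58 log2 units above their mean on the deposited scale. The levels were 1.44 ± 1.14 for COL8A1 and -0.35 ± 1.31 for COL8A2, and neither passed the level test (limma, adjusted p = 0.16 for COL8A1 and 1 for COL8A2). COL8A1 was above without dog 2, its lowest dog, at 1.90, and leaving out the lowest dog can only raise a mean. Leaving out dog 1, dog 3 or dog 4 gave no call. COL10A1, the marker of hypertrophic chondrocytes, was below the median detected gene at -2.03 ± 0.52, with 22, 23, 12 and 21 reads. At a distance of 2 log2 units it no longer passed. Its annotated span overlaps that of NT5DC1 in RefSeq, and reads of the genes may be mixed there.

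Among FACIT genes, COL12A1 and COL14A1 stood at opposite ends in dog 4. COL12A1 (ENSCAFG00000002702), which binds type I fibrils in dense connective tissue such as ligament, had 34317, 24861, 22711 and 162599 normalised reads in dogs 1 to 4, or 0.213%, 0.166%, 0.156% and 1.00% of all reads. Dog 4 lay 2.60 log2 units above the mean of the other dogs. COL14A1 (ENSCAFG00000000934), a related FACIT of skin and tendon, had 1693, 1631 and 1696 normalised reads in dogs 1 to 3 and 282 in dog 4. That placed dog 4 below the others by 2.49 log2 units (difference -2.49). Both genes were above the median detected gene over the 4 dogs, at 8.04 ± 1.33 for COL12A1 and 2.78 ± 1.24 for COL14A1 (limma, adjusted p = 1.94e-07 and 0.000771), although COL14A1 did not pass at a distance of 2 log2 units. COL16A1, a FACIT of skin and smooth muscle, was lowest in dog 3, at 10916, 11484, 7879 and 13298 normalised reads (level 6.07 ± 0.33). COL9A2, a chain of the cartilage collagen type IX, had 289, 200.2, 112 and 282 normalised reads and a level of 0.51 ± 0.59, neither above nor below. Its partner chains were scarcely read, with 1 read of COL9A1 in dog 1 alone and 0, 0, 1 and 7 reads of COL9A3, which was below. COL19A1, COL20A1 and COL21A1 were below the median detected gene with 7, 8 and 2 reads over the 4 dogs, and COL22A1, a collagen of muscle-tendon junctions, had 10 reads in dog 3 and none elsewhere.

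Transmembrane collagens, which span the cell surface, were low throughout. COL17A1, a component of epithelial hemidesmosomes, had 44, 66, 24 and 18 reads, or 31.6, 60.9, 22.9 and 39.0 normalised reads, and lay below the median detected gene at -1.53 ± 0.41 (limma, adjusted p = 0.0437). Without dog 1 (-1.48) or dog 3 (-1.38) it no longer passed, nor with every gene of the table tested or at a distance of 2 log2 units. COL13A1, found at neuromuscular junctions and in connective tissue cells, was below at -2.97 ± 0.37 with 8, 13, 3 and 1 reads. COL25A1, a collagen of neurons, had 1 read in dog 3, and COL23A1 had 0 reads in all 4 dogs, which over all libraries allows up to 0.0489 CPM. These limits are set at 3 reads and cover counting error only.

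The remaining classes held 2 well-read genes. COL15A1, a multiplexin that bridges basement membranes and fibrils, had 23101, 34916, 13900 and 16703 normalised reads in dogs 1 to 4 (level 7.02 ± 0.58), with dog 2 highest and dog 3 lowest. COL7A1, which anchors epithelium to the dermis, had 573, 500.1, 816 and 998 (level 2.16 ± 0.45, limma adjusted p = 6.87e-05). It lost its call when levels were taken from the median of genes with reads in all 4 dogs (1.34), or at a distance of 2 log2 units. COL26A1, a collagen with little known function, had 0, 3, 1 and 5 reads and was below, and COL28A1, reported mainly in peripheral nerve of the mouse, had 1 read in dog 1.

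Partner genes were next compared within each library, where depth cancels. Because lengths are missing, the size of a ratio is not read, only its change between dogs. COL1A1 over COL1A2 reads gave 1.43, 1.41, 1.38 and 1.19 in dogs 1 to 4, a log2 SD of 0.12. The exact 95% binomial interval of dog 4, 1.18 to 1.20, lay apart from that of dog 3, 1.38 to 1.39, which was the nearest. COL4A1 over COL4A2 varied over 4.64, 5.22, 6.35 and 5.88, a log2 SD of 0.20, while the separate levels of the pair had SDs of 0.65 and 0.57. COL5A1 over COL5A2 gave 1.21, 1.92, 1.19 and 0.96, a log2 SD of 0.42, which is no smaller than the SDs of the separate levels (0.39 and 0.41), and dog 2 was highest. COL8A1 over COL8A2 gave 5.49, 3.04, 6.69 and 2.45, a log2 SD of 0.69, and the intervals of dogs 2 and 4, 2.21 to 4.23 and 2.09 to 2.89, overlapped each other but not those of dogs 1 and 3. COL3A1 over COL1A1, the type III to type I read ratio, was 1.30, 1.07, 1.03 and 1.75, highest in dog 4. The ratios of the COL1, COL4 and COL8 pairs thus had smaller log2 SDs than the levels of either partner, and that of the COL5 pair did not. The ratios were taken on reads and the levels on the deposited scale, which flattens near 0 reads. For the COL8 pair the mean log2 ratio was 2.02 on reads and 1.80 on deposited values. Pairs of other genes were not compared in this way. The intervals cover counting error only, and reads may include copies made during amplification.

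**Figure D3:**
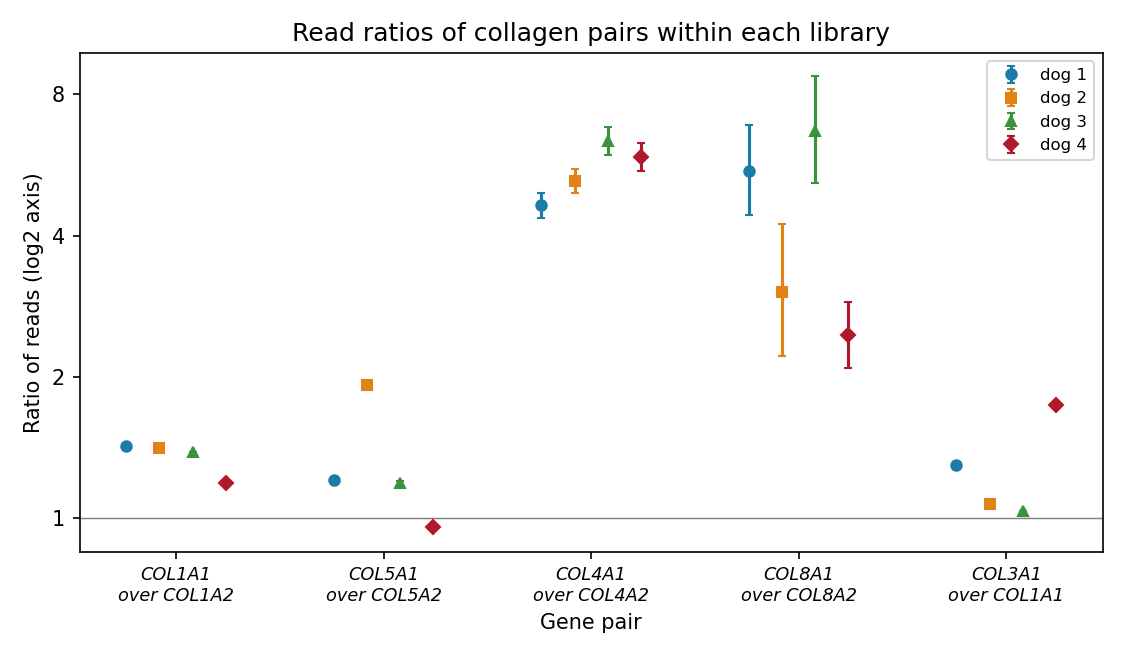
Ratio of reads between collagen genes within each library (vertical axis, log2 scale), with 1 point per dog and exact 95% binomial intervals, which are smaller than the point for the highly read genes. The COL1A1 over COL1A2 point of dog 4 sits at 1.19, below 1.38 to 1.43 in dogs 1 to 3, and the COL3A1 over COL1A1 point of dog 4 sits at 1.75, above 1.03 to 1.30 in dogs 1 to 3.

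The differences between dogs were then set against those of all genes. Of the 38 members, 21 had a mean of at least 10 normalised reads. Among these, 11 were highest in dog 4, 4 in dog 1, 3 in dog 2 and 3 in dog 3, beside 34.0%, 22.9%, 18.0% and 25.1% of the 13168 genes that passed the same filter. The lowest value fell in dog 3 for 10 members, in dog 4 for 5, in dog 2 for 4 and in dog 1 for 2, beside 26.1%, 32.8%, 18.6% and 22.5% of genes. The members highest in dog 4 were COL11A1, COL27A1, COL11A2, COL4A1, COL4A2, COL8A1, COL8A2, COL10A1, COL12A1, COL16A1 and COL7A1. The members lowest in dog 4 were COL1A1, COL1A2, COL3A1, COL14A1 and COL5A3. For COL3A1 the margin was small (difference of dog 4 to the mean of the others -0.17). COL11A2, at 43.4 normalised reads in dog 4 against 42.4 and 41.5 in dogs 1 and 2, was all but tied there with both dogs. For COL27A1 and COL16A1 the level SDs were 0.21 and 0.33.

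**Figure D4:**
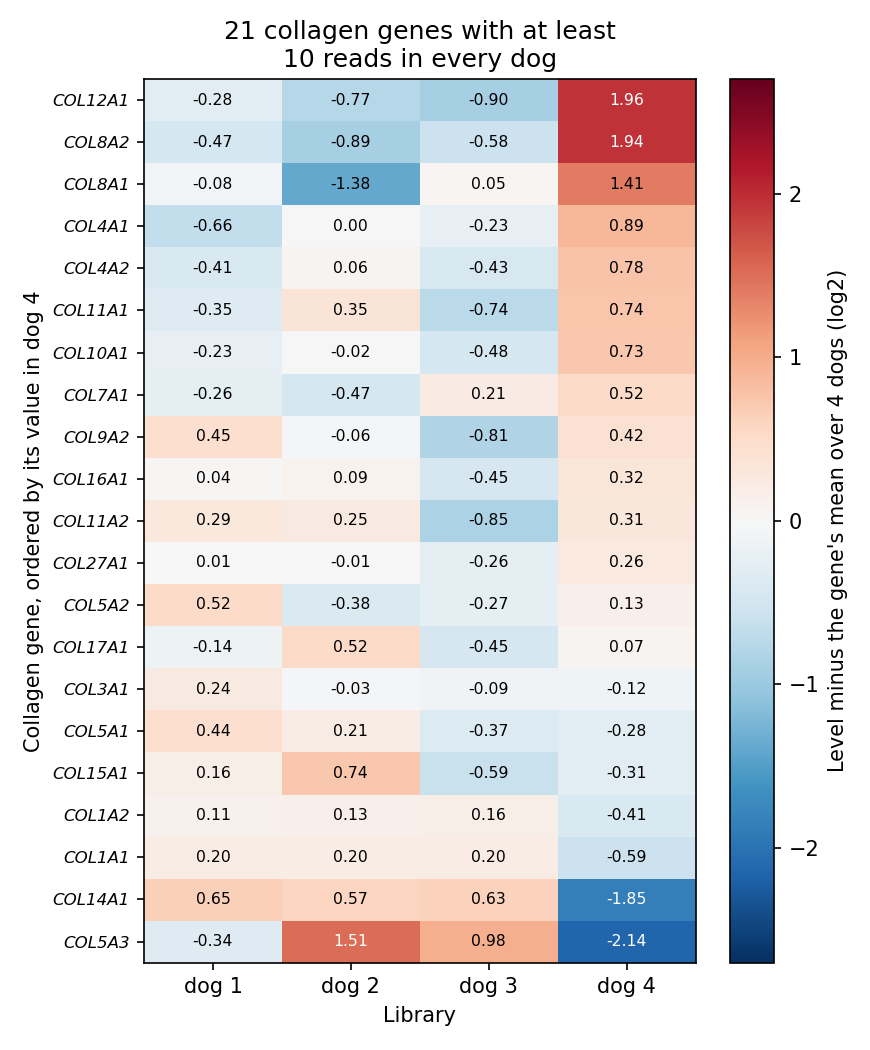
Level of each of the 21 collagen genes with at least 10 reads in every dog, minus the mean of that gene over the 4 dogs (colour and printed value, log2), ordered by dog 4. COL12A1 (1.96) and COL8A2 (1.94) are highest and COL14A1 (-1.85) and COL5A3 (-2.14) lowest in dog 4.

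The highest dog exceeded the lowest by at least 4-fold in 5 of the 21 members, COL5A3, COL12A1, COL8A2, COL14A1 and COL8A1, beside 6.93% of the 11467 genes with at least 10 reads in every dog. Over dogs 1 to 3 alone the count was 0 of the 21 members, beside 2.49% of genes. Leaving out a dog can only lower such a count or keep it. Dog 4 was the highest or lowest dog in each of the 5 members, and no other dog was left out for this count. It was also the highest or lowest dog in 16 of the 21 members. The same held for 8800 of the 13168 genes with a mean of at least 10 normalised reads. How often dog 4 was at an end among all genes with a 4-fold range was not counted. A single dog stood apart from the other dogs, by a gap ratio above Dixon's 95% critical value for 4 samples, in 5 of the 21 members, COL1A1, COL1A2, COL14A1, COL8A2 and COL11A2, beside 6.00% of the genes with a mean of at least 10 normalised reads. The median level SD of the 21 members was 0.57, beside 0.29 over all genes with at least 10 reads in every dog, and without dog 4 it was 0.33 beside 0.23. Without dog 1, dog 2 or dog 3 it was 0.61, 0.64 or 0.50, beside 0.28, 0.31 or 0.28 over the same genes. The members have a higher median level (2.95) than those genes (1.32), so the sets are not matched for read level. No member passed the test of variability between dogs (limma prior variance, F test, Benjamini-Hochberg), and 0% of the 17200 detected genes did. At an unadjusted p under 0.05 there were 8 of 31 members and 895 of 17200 genes. The smallest unadjusted p among members was 0.000431, for COL5A3, with an adjusted p of 0.21.

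**Figure D5:**
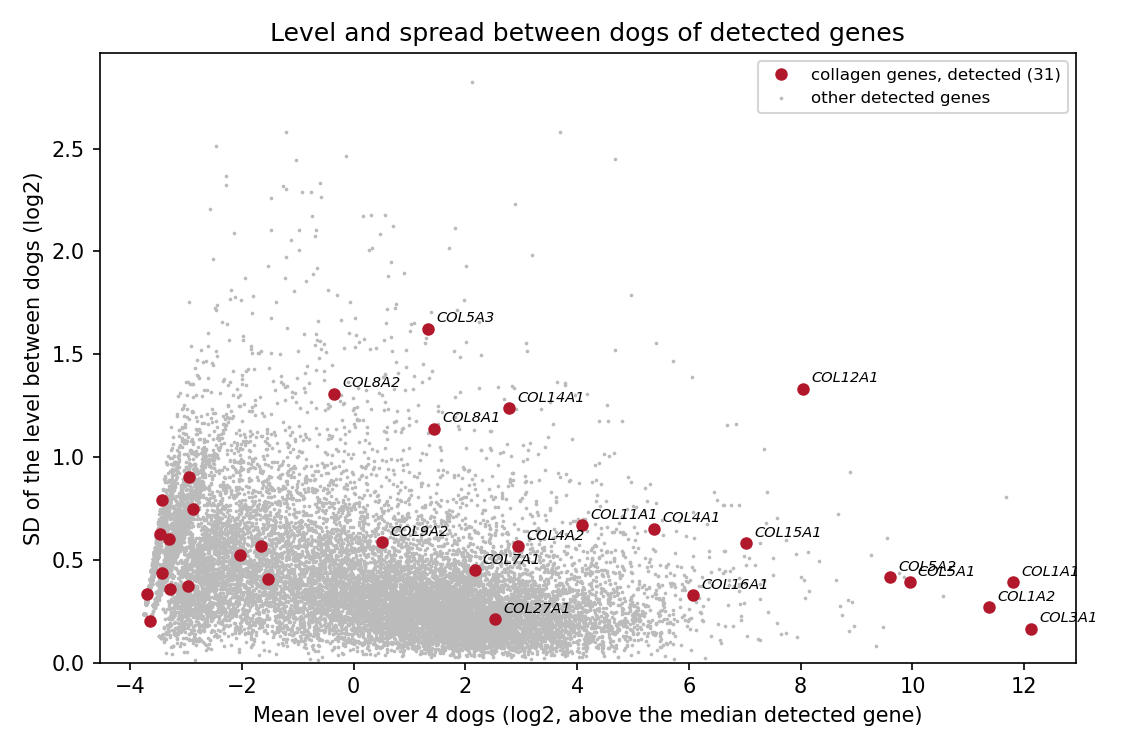
Mean level (horizontal axis, log2 above the median detected gene) and SD of the level between the 4 dogs (vertical axis, log2) of the 31 detected collagen genes and all other detected genes. COL5A3, COL12A1, COL8A2, COL14A1 and COL8A1 have SDs above 1, and COL3A1 has 0.16.

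Values that stood out in dog 4 among markers of other cell types are given here for the gene that carried them. The library of dog 4 was also the shallowest, and the median SD of the detected members was 0.59 after all libraries were thinned to its depth and 0.57 before. Thinning makes the other libraries as shallow, so these medians do not show what depth did to the values of dog 4. Of 6 measured smooth muscle and myofibroblast genes, 4 passed the level test as above and 1 as below, beside 33.3% and 35.8% of all detected genes. The summed normalised reads of the 6 genes were 117864 in dog 4, against 65534, 42370 and 30277 in dogs 1 to 3. ACTA2 (66731 normalised reads) and TAGLN (44822) gave most of the sum in dog 4. CNN1, MYH11 and DES were also highest there, and RGS5 was at 0. However, MYH11 ranged only 1.28-fold between dogs, and DES had 0, 0, 3 and 4 reads in dogs 1 to 4. Of 6 measured keratinocyte and epithelial genes none was above, and their sum was 1013 in dog 4, against 44.5, 36.9 and 32.5 in dogs 1 to 3. KRT18 alone gave 943 of these in dog 4, and CDH1 and TP63 were at 0. Of 7 measured chondrocyte genes none was above, and their sum was 345 in dog 4, against 99.1, 158 and 107 in dogs 1 to 3. The list did not move together, since HAPLN1 alone gave 269 in dog 4 while MATN3 and SNORC were lowest there. Of 3 measured tendon genes only SCX had reads in dog 4, with 23 reads there, against 11, 7 and 5 in dogs 1 to 3, and TNMD was at 0 in all dogs.

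Other marker sums were lowest in dog 4. The 6 measured osteoblast genes summed to 462 normalised reads in dog 4, against 889, 979 and 695 in dogs 1 to 3. RUNX2, an osteoblast transcription factor, made up most of this, at 243 in dog 4, against 685, 733 and 520 in dogs 1 to 3. RUNX2 passed the level test as above, at 1.71 ± 0.69 (limma, adjusted p = 0.00915). It was the only gene of this list above, and 2 were below, beside 33.3% and 35.8% of all detected genes. SP7 was highest in dog 4, and IBSP was at 0 in all dogs. The 4 measured adipocyte genes summed to 128 in dog 4, against 338, 349 and 365, mostly PPARG, with CIDEC at 0 in all dogs. The 7 measured Schwann and neural genes summed to 15.2 in dog 4, against 51.0, 70.1 and 94.5, mostly ERBB3 in dogs 1 to 3, with CDH19 at 0 in all dogs. The 6 MSC genes summed to 19041 in dog 4, against 26664, 21393 and 30569, but ENG was highest in dog 4 and THY1 was higher in dog 4 than in dogs 1 and 2. The part of depth and of these markers in the collagen differences was not tested. In bulk RNA, a changed share of a cell type and a changed amount of RNA per cell cannot be told apart.

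Most genes that fold, modify and crosslink collagen chains lay well above the middle of the library. Of 34 measured biosynthesis genes, 28 were above, 3 were below and 3 passed in neither direction, beside the background of 33.3% and 35.8% given above. The collagen-binding glycoprotein SPARC (8.85 ± 0.30), the crosslinking oxidase LOXL2 (8.08 ± 0.31), the collagen chaperone SERPINH1 (7.93 ± 0.12) and the lysyl hydroxylase PLOD2 (6.90 ± 0.38) had the highest levels of the list (log2, mean ± SD, n = 4). The tolloid-like protease TLL2 (-2.79 ± 0.53) and the galactosyltransferase COLGALT2 (-3.70 ± 0.33) had the lowest. The median level SD was 0.31 over these 34 genes. SERPINH1 had 41933, 40754, 34927 and 38296 normalised reads in dogs 1 to 4. Its level SD was 0.12, beside 0.39 for COL1A1, 0.27 for COL1A2 and 0.16 for COL3A1.

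Receptors and degrading enzymes were more mixed. Of 12 measured collagen receptor genes, 6 passed as above and 1 as below, beside 33.3% and 35.8% of all detected genes, while 3 passed in neither direction and 2 were not detected. The integrin chain ITGB1 (6.99 ± 0.52), the endocytic collagen receptor MRC2 (5.97 ± 0.18), CD44 (5.46 ± 0.31) and the fibrillar collagen receptor kinase DDR2 (5.31 ± 0.04) were highest. The chondrocyte-type integrin ITGA10 was below, at -1.57 ± 0.46, and the adhesion receptor ADGRG1 was next lowest, at -0.99 ± 0.63. Of 15 measured genes of collagen degradation and its inhibitors, 9 were above and 4 below, beside the same 33.3% and 35.8%, and 2 were not detected. The gelatinase MMP2 (7.40 ± 0.83), the membrane collagenase MMP14 (6.90 ± 0.35), the cathepsin CTSB (4.55 ± 0.17) and the protease FAP (4.52 ± 0.78) were highest. The secreted collagenases MMP1 (-3.45 ± 0.38) and MMP13 (-3.08 ± 0.70) were the lowest detected members, both below.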

How the data were processed

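The 4 libraries came from a stranded total RNA kit with ribosomal RNA depletion and an RNA input of 10 ng, per the labels' protocols. The submitters' processing notes name Trimmomatic 0.39, FastQC 0.12.1, DESeq2, STAR 2.7.11a and build CanFam3.1. The counter, its strandedness and the gene annotation used were not given in the sources used here. The values are log2 values after a variance-stabilizing transformation, as the authors named their deposited table. Near 0 reads they flatten and understate differences. The transformation was inverted to reads and size factors (1.39, 1.08, 1.05 and 0.461 in dogs 1 to 4), and 100% of values were whole within 0.01 reads.

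The level test was an intercept-only limma fit (limma 3.58.1, R 4.3.3) over all 17200 detected genes, with a trended prior, a distance of 1 and Benjamini-Hochberg adjustment at 0.05. The variability test set each variance between dogs against the prior variance of that fit. Both were run on simulated data with set levels and spreads. The variable genes there were given a wider spread than any member had. The simulation therefore does not show whether the variability test could find spreads as small as those of the members. Read ratios have exact binomial intervals (scipy 1.17.1). Planned ratios per length and their sign-flip test were not run, because the RefSeq table gives genomic spans only. RefSeq (UU_Cfam_GSD_1.0) matched 37 of 38 members and was used for neighbours, and the spans of 20 overlap another annotated gene. Nothing says that the cultures were repeated, so p-values use a spread that joins dog, culture and library. Members, gene lists and tests were chosen with earlier results of these data known. Values in every dog are given for the 4 highest members of each class, the 8 with the largest SD among those with 10 reads in every dog, and those where 1 dog stood apart. Other gene lists are shown by their 4 highest and 2 lowest detected genes. Further markers and MSC sums were named after their values were seen. The unused columns of values numbered 0.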

Additional observations from a re-analysis of the deposited data

Results flagged for a closer look

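In groups of 4, a dog stood apart when its gap to the nearest other dog, divided by the range of all 4, exceeded Dixon's 95% critical value, which chance gives in about 1 of 20 groups. Dog 4 was apart and lowest for COL14A1 (gap ratio 0.978), COL1A1 (0.97) and COL1A2 (0.881), and for the share of all reads taken by collagen genes (0.859). Dog 4 was apart and highest for COL8A2 (0.857). Dog 3 was apart and lowest for COL11A2 (0.961), where it had 12 reads against 59, 45 and 20 in dogs 1, 2 and 4. For 6 genes the ratio follows from counts near 0 and says nothing of a dog. COL4A3 (0.868) had 1 read in each of dogs 1 to 3 and 0 in dog 4. A ratio of 1 is fixed by construction for genes with reads in a single dog, COL4A6 (dog 2), COL22A1 and COL25A1 (dog 3) and COL9A1 and COL28A1 (dog 1). Of these only COL22A1 exceeded 2 reads, with 10. The causes were not tested.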

How the results depend on the processing

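The number of collagen members above the median detected gene was 14 and ranged from 11 (every gene of the table tested) to 15. The number below, 13, was 3 when only genes with at least 10 reads in every dog were tested, because that filter removes the other 10, and lay between 10 and 18 under the remaining alternatives. The median level SD of detected members was 0.566 and lay between 0.350 (without dog 4) and 0.638 (without dog 2). Among recomputed levels of single named members, 344 kept their direction and call, 14 lost a call and 3 gained one. The level of COL9A2, not called either way, changed sign from 0.51 to -0.31 when taken from the median of genes with reads in all 4 dogs. Those lost when every gene was tested include COL3A1, COL1A1 and COL1A2, at levels of 12.13, 11.80 and 11.37, and the cause was not tested. The counts of biosynthesis, receptor and degradation genes, the share of reads and the read ratios stayed within 1.5 times, or 1 SD, of the reported values. Levels per kilobase could not be computed. No paired analysis was possible because the labels give 1 group. Members under 10 reads in a dog are limited by counting error.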
